A study of Mus musculus with 4 samples.

Results

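The genes described here carry out DNA replication and mitosis, and 39 of the 28692 genes in the count tables were taken by name. Of these, 16 act in DNA replication and nucleotide supply, 20 act in mitosis, and 3 (Stmn1, Hmgb2 and Cdkn2a) were kept apart as genes of other roles. All 39 were found: 38 by symbol, and Pclaf by its identifier (ENSMUSG00000040204), since the tables list it under the older symbol 2810417H13Rik. The study implanted B16-F10 melanoma, a mouse tumour line, in C57BL/6 mice and asked how the transcription factor IRF4 bears on the tumour immunity of CD8 T cells. On day 3 the mice were given Pmel-1 T cells, which are CD8 T cells with a transgenic receptor for a melanocyte antigen. On day 14 cells were sorted from the tumours into 4 droplet libraries of 3' RNA, 1 per group. The transferred IRF4 library holds Pmel-1 cells that had been transduced with IRF4 and GFP, and the transferred control library holds Pmel-1 cells transduced with GFP alone. The endogenous IRF4 and endogenous control libraries hold the host's own CD45+ cells, which were not transduced, from tumours of the same 2 treatment arms. Tumour line, mouse strain and the transfer of Pmel-1 cells are therefore shared by every group, and the promoter that drives the transgene, the number of mice pooled and their age are not given in the sources used here. With 1 library per group, no difference between groups was tested, and a library's sorting and capture cannot be told apart from its group.

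A dividing cell copies its DNA in S phase and separates the copies in mitosis. The genes for the copying machinery are switched on by E2F transcription factors as cells leave G1, and the genes for the spindle and chromosome segregation are switched on later, in G2, largely through promoter elements called CHR and CCAAT boxes. T cells that meet antigen divide rapidly, and in tumours a stem-like fraction marked by TCF1 is known to feed more differentiated cells that hold granzyme B and inhibitory receptors.

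The promoters of both classes are shown first, because their letters differ between the replication and the mitotic genes and were read without any count. RefSeq windows (build GRCm38.p6, 250 bases before to 50 after a start site) were found for 31 of the 39 genes, 12 of them replication and 17 mitotic genes. Capitals mark, on either strand, the E2F words TTTGGCGC, TTTCCCGC, TTTCGCGC and TTTGCCGC, the CHR word TTTGAA and the CCAAT box. Mcm6 (chr1:128359656-128359955, minus strand) has the most E2F matches, and 2 of its 3 overlap in part on opposite strands. Mcm5 (chr8:75109259-75109558, plus strand) has 2, which also overlap in part. Ccnb2 (chr9:70421505-70421804, minus strand) and Mki67 (chr7:135716330-135716629, minus strand) each have 2 CHR words and no E2F word. Cdk1 (chr10:69352863-69353162, minus strand) has all 3 motifs. These 5 were chosen after the matches were seen.
Mcm6: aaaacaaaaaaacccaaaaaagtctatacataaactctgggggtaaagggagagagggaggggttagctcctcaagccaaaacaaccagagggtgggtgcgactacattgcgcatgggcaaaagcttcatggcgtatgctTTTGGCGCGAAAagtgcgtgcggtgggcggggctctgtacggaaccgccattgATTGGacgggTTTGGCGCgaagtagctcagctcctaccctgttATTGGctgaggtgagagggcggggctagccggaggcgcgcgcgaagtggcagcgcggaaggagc
Mcm5: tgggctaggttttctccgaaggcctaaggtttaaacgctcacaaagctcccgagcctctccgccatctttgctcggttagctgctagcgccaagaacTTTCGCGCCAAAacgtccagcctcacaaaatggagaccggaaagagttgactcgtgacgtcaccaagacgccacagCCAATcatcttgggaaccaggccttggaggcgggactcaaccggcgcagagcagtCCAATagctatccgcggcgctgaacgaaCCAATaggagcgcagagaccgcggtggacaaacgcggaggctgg
Ccnb2: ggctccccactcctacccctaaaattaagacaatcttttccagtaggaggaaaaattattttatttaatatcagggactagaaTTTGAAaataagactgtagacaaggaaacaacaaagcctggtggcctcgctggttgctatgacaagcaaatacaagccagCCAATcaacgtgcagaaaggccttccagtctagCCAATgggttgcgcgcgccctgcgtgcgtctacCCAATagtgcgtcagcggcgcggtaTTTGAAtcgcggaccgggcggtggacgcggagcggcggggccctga
Mki67: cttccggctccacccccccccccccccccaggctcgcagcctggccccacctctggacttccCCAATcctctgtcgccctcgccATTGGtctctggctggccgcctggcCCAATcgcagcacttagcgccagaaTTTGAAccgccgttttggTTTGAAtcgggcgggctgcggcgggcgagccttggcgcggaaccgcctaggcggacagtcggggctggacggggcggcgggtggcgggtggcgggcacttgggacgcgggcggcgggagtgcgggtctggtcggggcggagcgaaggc
Cdk1: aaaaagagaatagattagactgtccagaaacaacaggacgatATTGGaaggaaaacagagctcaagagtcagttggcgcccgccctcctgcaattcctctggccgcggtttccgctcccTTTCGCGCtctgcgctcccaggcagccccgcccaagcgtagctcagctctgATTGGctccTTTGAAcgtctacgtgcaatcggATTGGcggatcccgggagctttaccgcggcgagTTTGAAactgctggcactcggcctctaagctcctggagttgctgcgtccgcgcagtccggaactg
An E2F word was present at 6 of 12 replication genes (Mcm3, Mcm5, Mcm6, Mcm7, Cdc6 and Pclaf) and at 1 of 17 mitotic genes (Cdk1). Among all 27025 genes with RefSeq windows of this length the share was 2.605%. The CHR word showed the opposite division. It was present at 1 of 12 replication genes (Mcm2) and at 12 of 17 mitotic genes, against 20.2% of all genes. CCAAT boxes did not divide the classes, with 9 of 12 replication genes and 15 of 17 mitotic genes, against 41.1% of all genes. A match is a description of the letters in these windows and says nothing of binding.

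The libraries differed in size and depth. The transferred IRF4 library was the smallest, with 715 barcodes, and the others held 3640 to 6981, at 16664323 to 94686409 unique molecular identifiers (UMIs, each counting 1 captured RNA molecule) per library. The 39 genes made up 0.662%, 0.427%, 0.515% and 0.208% of all UMIs in the transferred IRF4, transferred control, endogenous IRF4 and endogenous control libraries; values below follow this order. After filtering on depth and mitochondrial share, 15132 of 17711 barcodes were kept. CD8 cells were gated on UMIs of T cell and CD8 genes, which gave 472, 1972, 1971 and 677 cells at median depths of 15300, 17746, 9950 and 8268 UMIs. Barcodes with markers of more than 1 lineage were left out, and they made up 10.2% to 15.7% of kept barcodes. Of all barcode sequences, 25 occurred in 2 libraries and 1 in 3, and 1 CD8-gated cell in each of the transferred IRF4 and endogenous control libraries had a shared sequence. Irf4 itself stood at 27.3, 24.6, 10.5 and 8.41 CPM (the gene's UMIs relative to all UMIs of the gated cells), and a 3' tag of the mouse gene need not detect the vector's transcript, so it does not check the labels. The melanoma genes Pmel, Mlana, Tyrp1 and Dct stood at 14.2 to 34.0 CPM in CD8-gated cells of the transferred control library, at 0.412 to 2.06 CPM in those of the transferred IRF4 library and below 1 CPM in both endogenous sets. The part of these transcripts in the differences below was not tested beyond leaving out melanoma-positive barcodes. These held at least 2 summed UMIs of the 4 genes, so barcodes with 1 such UMI stayed. Of the transferred CD8 cells, 467 of 472 (IRF4 arm) and 1956 of 1972 (control arm) remained. Cd4 was at 0 in all 4 sets, by the gate, Csf1r and Cd79a stayed below 2 CPM, and Lyz2, an abundant myeloid transcript, stood at 33.0, 34.1, 43.6 and 106 CPM.

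Replication genes were most abundant in the CD8 cells of the 2 IRF4-arm libraries. Summed over the 16 genes, the level was 2096, 1441, 2439 and 1438 CPM, with 95% counting intervals of 2070 to 2122, 1431 to 1452, 2422 to 2457 and 1413 to 1463. The intervals throughout cover counting error only. Levels of single genes are given on the same scale, and the plot of levels by library shows all 39.

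**Figure D1:**
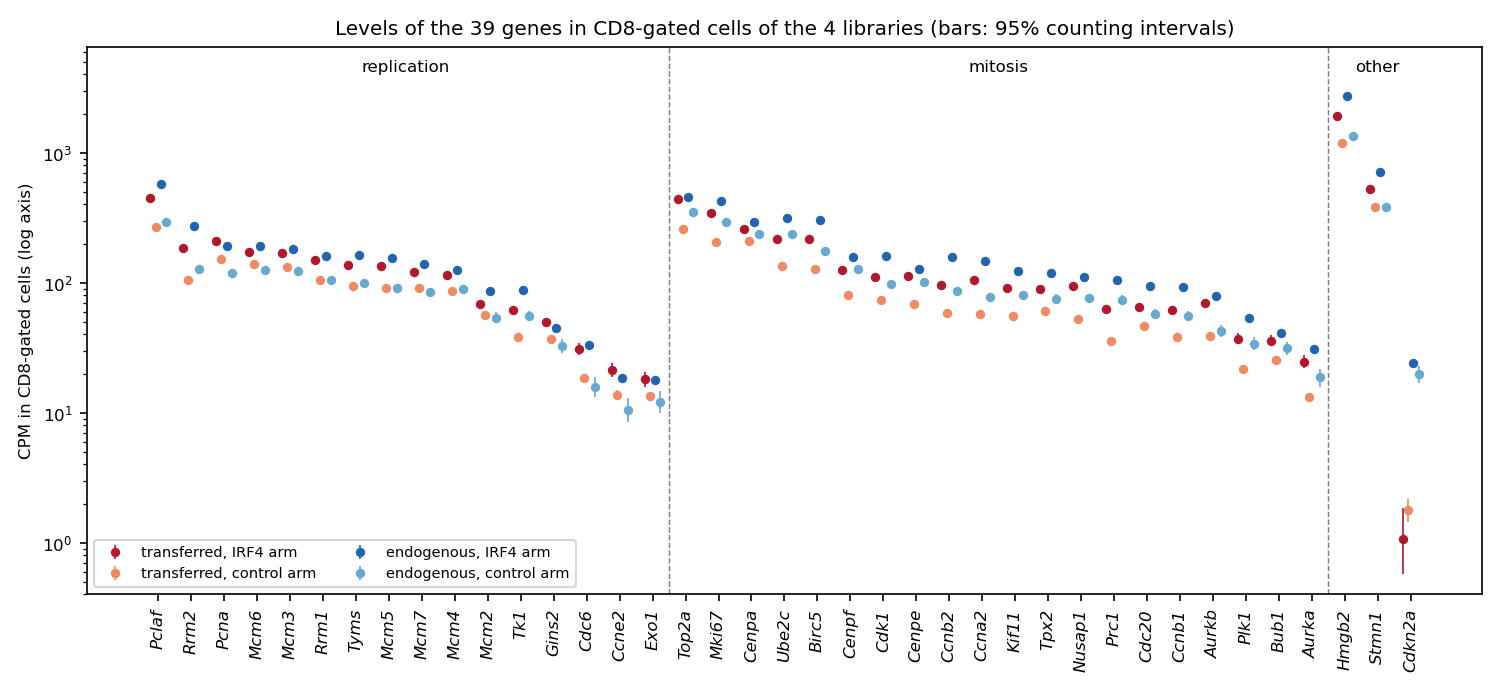
Level of each of the 39 genes (x axis, ordered within role by mean level) in CD8-gated cells of the 4 libraries, as CPM on a log axis. Points are library sums and bars 95% counting intervals; for every replication and mitotic gene the transferred IRF4 point lies above the transferred control point and the endogenous IRF4 point above the endogenous control point.

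The MCM helicase, a ring of 6 subunits that unwinds DNA at the fork, was represented by all its genes. Mcm2 stood at 69.0, 56.3, 85.8 and 53.9 CPM, Mcm3 at 169, 132, 180.0 and 124 CPM, and Mcm4 at 114, 86.9, 126 and 88.7 CPM. Mcm5 stood at 136, 91.1, 155 and 90.9 CPM, Mcm6 at 173, 139.9, 191 and 126 CPM, and Mcm7 at 122, 90.7, 140.3 and 85.3 CPM. In all 6 the endogenous IRF4 library was highest and the transferred IRF4 library next, and the 2 control libraries lay close together. Pcna, the sliding clamp of the DNA polymerases, stood at 209, 151, 190.5 and 119 CPM and was highest in the transferred IRF4 library. Gins2, a subunit of the GINS complex that activates the helicase, stood at 49.6, 36.7, 44.6 and 32.7 CPM. Cdc6, which loads the helicase onto origins, stood at 31.0, 18.5, 33.1 and 15.8 CPM. Ccne2, a cyclin E that starts S phase, stood at 21.4, 13.8, 18.3 and 10.5 CPM, and Exo1, a DNA exonuclease, at 18.1, 13.4, 17.7 and 12.1 CPM. For Gins2, Ccne2 and Exo1 the transferred IRF4 library was at the top, but its counting interval overlapped that of the endogenous IRF4 library.

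Among the nucleotide supply genes Rrm2, the regulated subunit of ribonucleotide reductase, stood at 185, 104, 271 and 128 CPM, while its partner Rrm1 stood at 149.8, 105, 159.6 and 105 CPM. Tyms, thymidylate synthase, stood at 137, 94.5, 164 and 98.6 CPM, and Tk1, thymidine kinase, at 61.5, 38.3, 87.9 and 55.3 CPM. Rrm2 and Tk1 were also higher in the endogenous than in the transferred control library, which was not so for Rrm1. Pclaf, a factor that binds PCNA, stood at 450.4, 268, 574 and 292 CPM.

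Mitotic genes, like replication genes, were highest in sum in the endogenous IRF4 library, then in the transferred IRF4 library. Their 20-gene sum was 2649, 1656, 3392 and 2326 CPM, with intervals of 2620 to 2678, 1645 to 1667, 3372 to 3412 and 2294 to 2359. By this sum the transferred control library was the lowest of the 4. By share of thinned cells, given below, the endogenous control library was the lowest, so no order of the 2 control libraries is read.

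Among regulators of mitotic entry and exit, Cdk1, the mitotic kinase, stood at 111, 73.0, 162 and 97.1 CPM. Its cyclins were ordered alike, with Ccna2 at 105, 57.0, 148 and 77.9 CPM, Ccnb1 at 61.5, 38.2, 92.3 and 55.4 CPM, and Ccnb2 at 95.7, 58.4, 157 and 86.1 CPM. Cdc20 and Ube2c, which act with the anaphase-promoting complex that destroys those cyclins, stood at 65.4, 46.3, 94.7 and 57.5 CPM and at 218, 133, 317 and 235 CPM. For Ube2c the endogenous control library exceeded the transferred IRF4 library, unlike for Cdk1 or the cyclins. Plk1, a kinase of spindle assembly, stood at 37.1, 21.7, 53.4 and 34.0 CPM. Aurka, the spindle pole kinase, stood at 24.7, 13.2, 30.8 and 18.7 CPM, and Aurkb, the kinase of the chromosomal passenger complex, at 69.2, 38.7, 78.4 and 42.6 CPM. Birc5, survivin, another passenger subunit, stood at 216, 127, 303 and 175 CPM, and Bub1, a checkpoint kinase, at 35.9, 25.5, 41.4 and 31.2 CPM.

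Chromosome and spindle genes also had their lowest CPM in the transferred control library. Top2a, the topoisomerase that untangles chromosomes, stood at 437, 257, 459 and 353 CPM, and Mki67, which coats mitotic chromosomes and is the usual marker of dividing cells, at 341, 207, 423 and 294 CPM. Cenpe and Cenpf, kinetochore proteins, stood at 112, 68.6, 128 and 101 CPM and at 126, 79.9, 157 and 127 CPM. Cenpa, the centromeric histone, varied least of these, at 258, 208, 291 and 235 CPM. The microtubule proteins Kif11 (91.1, 55.1, 123 and 80.2 CPM), Tpx2 (88.8, 60.5, 118 and 75.4 CPM), Nusap1 (93.5, 52.3, 110.0 and 76.2 CPM) and Prc1 (62.4, 35.6, 106 and 73.8 CPM) organise the spindle. Of these, Prc1, the crosslinker of the central spindle, was the only one higher in the endogenous control than in the transferred IRF4 library.

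Hmgb2, a chromatin protein abundant in dividing cells, stood at 1929, 1195, 2736 and 1336 CPM. Stmn1, a microtubule destabiliser, stood at 525, 380.2, 714 and 382 CPM. In both genes the 2 IRF4-arm libraries were on top. Cdkn2a, the locus of the cycle inhibitors p16INK4a and p19ARF, stood at 1.07, 1.78, 24.2 and 19.7 CPM, so its 2 transferred values were low and its 2 endogenous values high in both arms.

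Between arms, the genes were higher in transferred CD8 cells of the IRF4 arm, and mitotic genes more often passed the threshold than replication genes. Of 38 genes measured (at least 10 CPM in either library), 22 were higher by at least 1.5-fold and 0 lower, against 3.51% and 2.5% of all measured genes. Their median log2 ratio, computed on CPM plus 1, was 0.66, beside 0.0028 over all measured genes. The 5 replication genes past the threshold were Rrm2, Tk1, Pclaf, Ccne2 and Cdc6, out of 16. Rrm2 had a ratio of 1.78 (1.69 to 1.87) and Pclaf 1.68 (1.63 to 1.73). None of the 6 MCM genes passed it, and their ratios ran from 1.23 for Mcm2 (1.13 to 1.32) to 1.49 for Mcm5 (1.41 to 1.57). Among mitotic genes 16 of 20 passed, with the highest ratios at Aurka, 1.88 (1.64 to 2.16), and Ccna2, 1.85 (1.73 to 1.97). The 4 that did not were Cdc20, Cenpa, Tpx2 and Bub1, at 1.24 to 1.47. The summed ratio was 1.45 (1.43 to 1.48) for replication and 1.60 (1.58 to 1.62) for mitosis. Without the 6% of barcodes with the most UMIs in each library the count of higher genes fell to 14, and at a threshold of 2-fold it was 0. The 6% were taken from all kept barcodes, which left 452 of 472 and 1947 of 1972 CD8 cells. Without melanoma-positive barcodes, an alternative added after seeing the data, the count of higher genes was 22. Hbb-bs, a globin gene, stood at 0.0825 against 60.01 CPM in these cells, and its part was not tested.

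Among genes of the same processes outside the 39, 10 of 59 further replication genes and 29 of 57 further mitosis genes were higher by 1.5-fold in this comparison, and 0 of either was lower. Clspn, a mediator of the replication checkpoint, stood at 61.9 against 35.6 CPM (1.74, 1.59 to 1.89), and Dlgap5, a spindle protein, at 55.6 against 32.9 CPM (1.69, 1.54 to 1.85). Of 26 regulators of G1, 3 were higher and 0 lower: the inhibitors Cdkn1a (37.0 against 12.4 CPM, 2.98, 2.64 to 3.37) and Cdkn2c (22.8 against 14.6 CPM, 1.56, 1.36 to 1.80) and Lin54 (19.7 against 11.9 CPM, 1.65, 1.42 to 1.92), a DNA-binding subunit of the complex that reads CHR elements. These 3 were named for their count, after their values were seen.

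In endogenous CD8 cells, which were not transduced, the genes were also higher in the IRF4 arm. Here replication genes led by summed CPM, but not in cells thinned to equal depth. All 39 were measured, and 25 were higher by 1.5-fold and 0 lower, against 3.32% and 4.27% of all measured genes. The median log2 ratio was 0.66, beside 0.022 over all measured genes. Of 16 replication genes, 12 passed, and the 4 that did not were Mcm3, Mcm4, Gins2 and Exo1, at 1.36 to 1.46. Rrm2 had the highest ratio, 2.11 (1.98 to 2.25), then Cdc6 at 2.10 (1.76 to 2.53). Of 20 mitotic genes, 11 passed, led by Ccna2 at 1.90 (1.75 to 2.06) and Aurkb at 1.84 (1.65 to 2.06). Top2a, Mki67, Cenpe, Cenpf, Nusap1, Ube2c and Prc1, which had passed between transferred libraries, stood at 1.23 to 1.44. Hmgb2 was 2.05 (2.01 to 2.09) and Stmn1 1.87 (1.80 to 1.94). Beside these, Hbb-bs stood at 0.311 against 648 CPM and Cd74, an abundant transcript of antigen-presenting cells, at 108 against 419 CPM in the same CD8 sets, and their part in the result was not tested. The summed ratio was 1.70 (1.67 to 1.73) for replication and 1.46 (1.44 to 1.48) for mitosis. A mitochondrial limit of 5% left 15 genes higher, keeping barcodes with markers of more than 1 lineage gave 39, and a threshold of 2-fold gave 3. Outside the 39, 34 of 61 replication, 31 of 60 mitosis and 1 of 25 G1 genes were higher and 0 lower, the last being Cdk2, the S phase kinase (24.9 against 13.1 CPM).

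The 2 between-arm comparisons share no library, but both set the same 2 treatment arms against each other. In both, 15 genes were higher by 1.5-fold, which is 68.2% of the 22 and 60% of the 25: Rrm2, Tk1, Pclaf, Ccne2, Cdc6, Birc5, Ccnb1, Ccnb2, Ccna2, Cdk1, Aurka, Aurkb, Plk1, Kif11 and Hmgb2. With 22 of 38 and 25 of 39 genes called, a large overlap follows from these counts alone, so the 15 are not read as agreement gene by gene. The overlap over all measured genes is not given here. Whether the 2 comparisons differ was not tested.

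**Figure D2:**
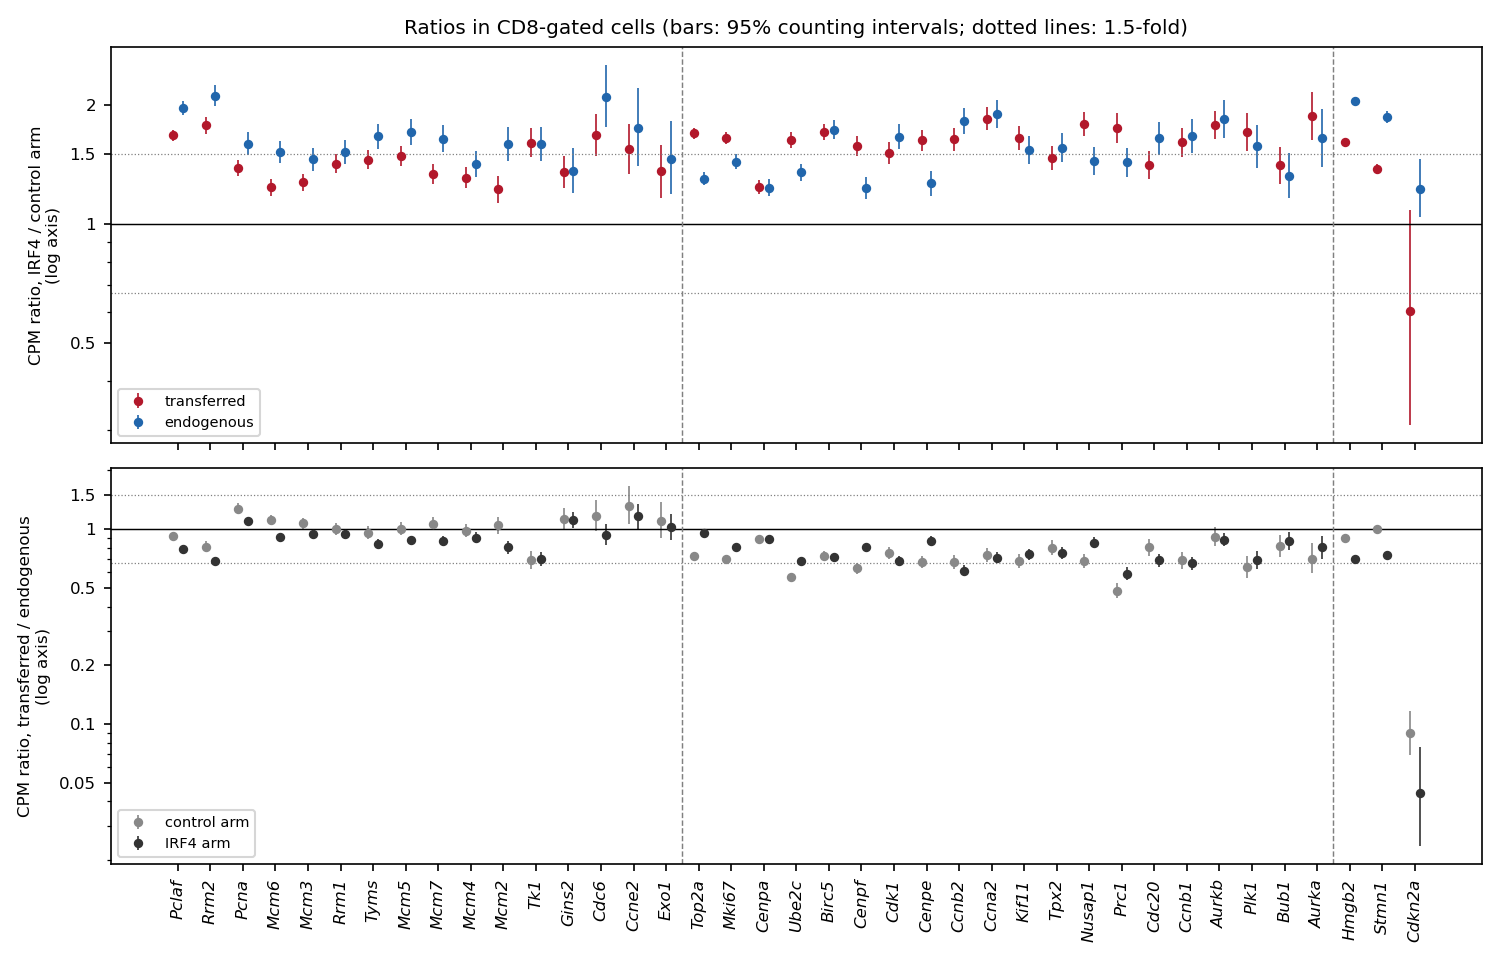
Ratio of CPM in CD8-gated cells for each of the 39 genes, on log axes, with 95% counting intervals; dashed lines part replication, mitotic and other genes. Upper panel, IRF4 over control arm, where all replication and mitotic points lie above 1; lower panel, transferred over endogenous cells, where all 20 mitotic points lie below 1 in both arms and Cdkn2a lies far below the rest.

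Transferred and endogenous CD8 cells of the same arm were compared next, and in the control arm the measures did not give 1 order. In summed CPM of that arm all 20 mitotic genes had a ratio of transferred over endogenous below 1 and their sum stood at 0.712 (0.701 to 0.723), whereas the replication sum was level, at 1.002 (0.984 to 1.02), with 11 of 16 genes above 1. With cells thinned to 2000 UMIs the mitotic sums were 908 and 989.6 CPM and the replication sums 912 and 739.6 CPM, and mitotic UMIs were present in 25.9% of transferred against 19.4% of endogenous cells. The 5 genes lower by 1.5-fold, of 39 measured, were Prc1 (0.482, 0.440 to 0.528), Ube2c (0.568, 0.540 to 0.597), Cenpf (0.628, 0.588 to 0.672), Plk1 (0.638, 0.560 to 0.728) and Cdkn2a, and 0 were higher, against 12% lower and 6.93% higher of all measured genes. The share of lower genes is thus near the background. In the IRF4 arm the mitotic sum was 0.781 (0.771 to 0.791), again with all 20 genes below 1, and the replication sum was 0.859 (0.847 to 0.871), with 12 of 16 below 1. With thinned cells of that arm the mitotic sums were 1474 (transferred) and 1943 CPM (endogenous). The shares of cells with mitotic UMIs were 35.8% (31.5 to 40.3) and 36.8% (34.6 to 38.9), with intervals that overlapped. There 3 genes were lower, Prc1 (0.590, 0.545 to 0.639), Ccnb2 (0.610, 0.572 to 0.650) and Cdkn2a, and 0 higher, against 10% lower and 5.87% higher of all measured genes. Here the 2 compartments also differ in sort gate and library, which cannot be told apart from cell origin.

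Several settings moved these counts. With a mitochondrial limit of 5% the genes lower in transferred cells numbered 17 in the control arm and 11 in the IRF4 arm, and with a stricter marker gate 14 and 8. With every cell weighted equally 1 was lower in the control arm, with barcodes of mixed lineage kept 2, without the 6% deepest barcodes 3, and without melanoma-positive barcodes 8. At a threshold of 2-fold 2 were lower in the control arm and 1 in the IRF4 arm, and without the deepest barcodes 5 were lower in the IRF4 arm while 6 were higher in the control arm and 1 in the IRF4 arm. The mitotic sum stayed lower in transferred cells under all alternatives run, with log2 ratios from -0.75 to -0.07 in the control arm and from -0.43 to -0.26 in the IRF4 arm. The replication sum changed sign with the setting in both arms.

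Outside the 39, the same libraries gave 10 of 57 mitosis genes lower and 0 higher in the control arm, and 5 of 60 lower and 0 higher in the IRF4 arm. The background of lower genes was 12% and 10%, and the count in the IRF4 arm is not above it. Those 5 were Lmnb1 (171 against 299 CPM), Pttg1, Cdca2, Kif22 and Kif23. Few further replication genes passed the threshold: in the control arm Cdca7 (57.9 against 23.6 CPM) and Ung (39.9 against 19.6 CPM) were higher and Asf1b (32.6 against 53.8 CPM) lower of 57, and in the IRF4 arm Rpa2, Asf1b and Dck were lower and 0 higher of 61. In the IRF4 arm 49 of those 61 were below 1, with a summed ratio of 0.862 (0.853 to 0.871). Among G1 regulators 9 of 26 were lower in the control arm, against the same 12%. In the IRF4 arm Cdk6 (47.6 against 146 CPM), Klf2 (95.4 against 250.7 CPM), Rbl1, Rbl2 and Cdkn2c were lower and Ccnd2, a D cyclin, higher (219 against 127 CPM), of 25.

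Per replication UMI there were 1.26, 1.15, 1.39 and 1.62 mitotic UMIs in the 4 CD8 sets. These sums weight deep cells more, so each cell was also thinned to 2000 UMIs, leaving out at most 2 shallower cells per library. The ratio was then 1.24 (1.14 to 1.34), 0.996 (0.951 to 1.04), 1.36 (1.32 to 1.41) and 1.34 (1.23 to 1.45). The transferred control library was again the lowest, and the 2 endogenous libraries were level.

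Cells were sorted into 4 classes by whether the thinned cell had at least 2 replication UMIs, at least 2 mitotic UMIs, both or neither. Replication UMIs were present in 39.8%, 35.3%, 42.4% and 25.1% of CD8 cells, and mitotic UMIs in 35.8% (31.5 to 40.3), 25.9% (24.0 to 27.9), 36.8% (34.6 to 38.9) and 19.4% (16.5 to 22.6). In each compartment the IRF4 arm was the higher. The intervals did not overlap for mitotic UMIs. For replication UMIs those of the transferred libraries overlapped (35.4 to 44.4 and 33.2 to 37.4), and those of the endogenous libraries did not (40.2 to 44.6 and 21.9 to 28.6). Without thinning the mitotic shares were 72.5%, 66.99%, 58.6% and 41.9%, and the replication shares 82.2%, 82.96%, 74.8% and 64.7%. The unthinned replication shares of the 2 transferred libraries were thus alike, with the control slightly higher. B cells, few of which should be dividing, had mitotic UMIs in 8.47% (IRF4 arm) and 4.98% (control arm) of thinned cells, at median depths of 3314.5 and 3578 UMIs. For the control arm the order of transferred and endogenous cells by share goes against their order by CPM, so no order is read from either.

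**Figure D3:**
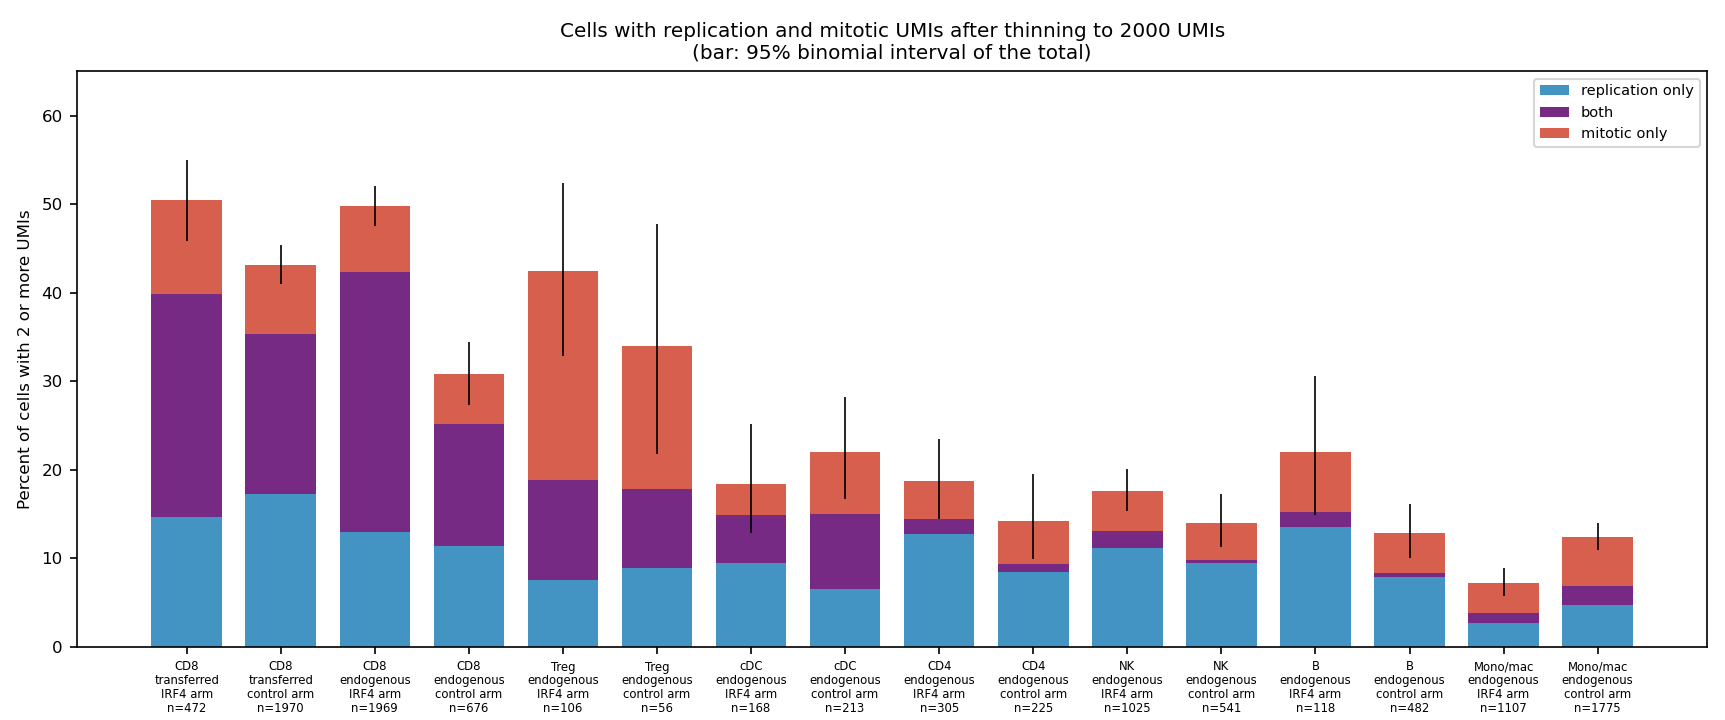
Percent of gated cells with at least 2 replication UMIs only, at least 2 of both kinds, or at least 2 mitotic UMIs only, after thinning each cell to 2000 UMIs; bars are 1 class in 1 library, n is the number of cells, and black lines are 95% binomial intervals of the total. The CD8 bars reach 30.8% to 50.4%, and cells with both kinds are the largest part of each CD8 bar.

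Most CD8 cells with mitotic UMIs also had replication UMIs: 70.4%, 69.6%, 79.8% and 71.0%, against 22.8%, 23.3%, 20.6% and 14.1% of cells without mitotic UMIs. Cells with both made up 25.2%, 18.0%, 29.4% and 13.8% of the CD8 cells. They were also the deepest, with median totals of 47069, 44906, 26385.5 and 28092 UMIs, against 10555, 11735.5, 6951 and 7433.5 UMIs in cells with neither. Whether doublets of the same lineage add to the class with both was not tested.

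The single genes marked these classes to different degrees, each assigned with the gene itself left out of its own sum. Mcm6 was present in 34.4%, 24.4%, 29.6% and 27.4% of cells with replication UMIs alone, in 37.6%, 30.1%, 37.3% and 38.2% of cells with both, and in 7.69%, 10.9%, 14.3% and 16.7% of cells with mitotic UMIs alone. Rrm2 and Pclaf belonged rather to cells with both. Rrm2 was present there in 40.7%, 35.8%, 49.0% and 33.7%, but in 8.70%, 6.57%, 9.64% and 2.67% of cells with replication UMIs alone. Pclaf was present in 74.8%, 64.8%, 75.7% and 61.4% of cells with both, in 16.9%, 10.7%, 19.4% and 8.11% with replication UMIs alone, and in 24.1%, 20.6%, 32.8% and 18.6% with mitotic UMIs alone. Ccnb2 was at the mitotic end, in 37.5%, 22.3%, 41.3% and 34.2% of cells with mitotic UMIs alone, 23.1%, 19.0%, 35.8% and 32.6% with both, and 4.23%, 3.16%, 3.05% and 2.56% with replication UMIs alone. Ccna2, whose protein acts in both S phase and mitosis, peaked in cells with both, at 24.8%, 19.8%, 33.9% and 23.7%. In all 4 libraries Mcm6 was lowest, of these 3 classes, in cells with mitotic UMIs alone, and Ccnb2 in cells with replication UMIs alone. Hmgb2 was close to universal in cells with both, at 93.5% to 99.2%, and was present in 44.0% to 57.1% of cells with neither, so it did not mark dividing cells alone.

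Shares of Tcf7 and Gzmb differed between cells with both kinds of UMI and cells with neither, with intervals apart, in every CD8 set except the transferred IRF4 library. Shares are again of thinned cells. In endogenous cells Tcf7, the gene of TCF1, had a UMI in 2.77% (1.59 to 4.46) and 8.60% (3.79 to 16.2) of cells with both kinds, against 30.0% (27.2 to 33.0) and 31.6% (27.4 to 36.1) of cells with neither, in the IRF4 and control arms. In the transferred IRF4 library the shares were 13.4% (7.88 to 20.9) and 14.96% (10.6 to 20.2), and in the transferred control library 16.6% (12.9 to 20.9) and 31.9% (29.2 to 34.7). The 2 intervals were apart in every library except the transferred IRF4 library, where they overlapped almost entirely. Gzmb, the gene of granzyme B, had the converse pattern in endogenous cells, at 69.0% and 66.7% of cells with both kinds against 37.8% and 24.6% of cells with neither. In the transferred control library Gzmb had the same direction, at 23.4% (19.1 to 28.1) against 16.6% (14.5 to 18.9), with intervals apart. In the transferred IRF4 library it was at 49.6% (40.3 to 58.9) against 43.2% (36.7 to 49.8), with intervals that overlapped. Il7r, a receptor of resting and memory T cells, was lower in cells with both kinds in all 4 libraries, at 16.8%, 19.7%, 3.63% and 9.68%, against 32.5%, 37.9%, 34.4% and 33.5% in cells with neither. Ccl5 was lower there too, at 31.1%, 23.1%, 74.9% and 68.8%, against 59.8%, 55.5%, 92.0% and 80.1%. So was Cd69, at 11.8%, 14.9%, 20.6% and 8.60%, against 20.5%, 24.1%, 39.5% and 32.1%. Intervals overlapped for Ccl5 in the endogenous control and for Cd69 in the transferred IRF4 library. The lower share was thus not particular to Il7r.

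Cells were then divided by state first. Among CD8 cells with a Tcf7 UMI and none of Gzmb or Havcr2, mitotic UMIs were present in 28.3% (16.8 to 42.3) and 20.7% (17.2 to 24.6) of transferred cells, and in 8.06% (5.29 to 11.7) and 5.13% (2.24 to 9.85) of endogenous cells, IRF4 arm first. Those shares rest on 53, 483, 310 and 156 cells. Among cells with Gzmb or Havcr2 (which encodes TIM-3, an inhibitory receptor) and no Tcf7, they were 34.3% (27.9 to 41.1), 30.9% (26.0 to 36.1), 51.8% (48.6 to 55.0) and 37.8% (31.5 to 44.3). By summed level in the thinned cells, the 20 mitotic genes stood at 1481 and 717 CPM in Tcf7-only transferred cells but at 211 and 353 CPM in Tcf7-only endogenous cells. Replication genes stood at 849, 602, 342 and 317 CPM in the same cells. In Tcf7-only cells both transferred shares thus lay above both endogenous shares for mitotic and for replication UMIs (32.1%, 23.8%, 13.5% and 10.3% for the latter). In cells with Gzmb or Havcr2 alone the endogenous IRF4 library had the highest share of both kinds. The mitotic interval of the endogenous control library overlapped those of the transferred libraries there, and its replication share was the lowest (42.9%, 44.8%, 54.7% and 42.5%). Median depths of the Tcf7-only cells before thinning were 13868, 13678, 6919.5 and 6765.5 UMIs. Whether the difference between compartments holds beyond these libraries was not tested.

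**Figure D4:**
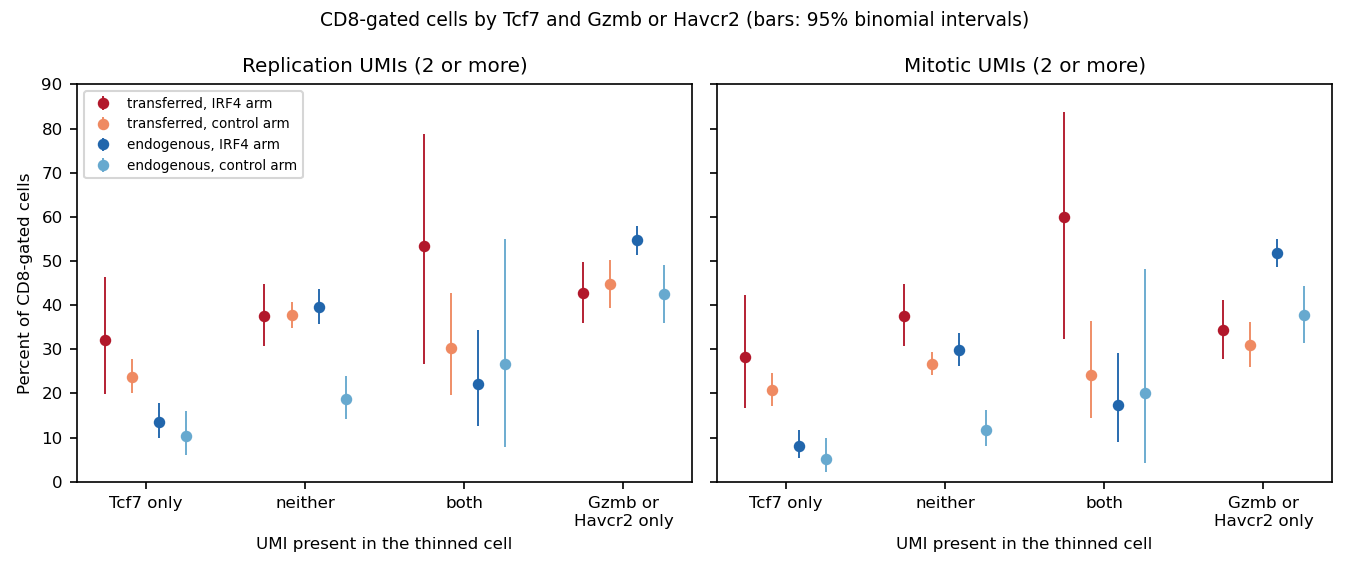
Percent of CD8-gated cells with at least 2 replication UMIs (left) or mitotic UMIs (right) after thinning to 2000 UMIs, by whether the cell also had a UMI of Tcf7, of Gzmb or Havcr2, of both or of neither. Points are libraries and bars 95% binomial intervals; in Tcf7-only cells both transferred points lie above both endogenous points, and the cells with both markers (15 to 66 per library) have wide intervals.

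Other gated classes of the endogenous libraries gave a setting for the CD8 values. Regulatory T cells came closest, with replication sums of 1321 and 1155 CPM and mitotic sums of 1956 and 1599 CPM in the IRF4 and control arms, from 106 and 57 cells. Few of these held most UMIs: 5 cells of the IRF4 arm held at least 50% of either sum, and in the control arm 2 cells of the replication and 3 of the mitotic sum. Of CD8 cells, 6.99%, 5.27%, 7.61% and 3.69% held at least 50% of the mitotic UMIs, against 4.72% and 5.26% of regulatory T cells. The mitotic sums of CD8 cells were thus also held largely by few cells. Conventional dendritic cells had 593 and 707 CPM of replication and 907 and 985 CPM of mitotic UMIs, and CD4 cells 486 and 411 CPM and 478 and 373 CPM. In CD4 cells 1 cell of each arm held at least 50% of the mitotic UMIs. B cells had replication and mitotic sums of 629 and 719.6 CPM in the IRF4 arm, against 217 and 167 CPM in the control arm. Of the 118 B cells of the IRF4 arm, 1 held at least 50% of the mitotic and 2 held at least 50% of the replication UMIs. The scatter of both sums by class shows that the CD8 and regulatory T cell points lie apart from the rest.

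**Figure D5:**
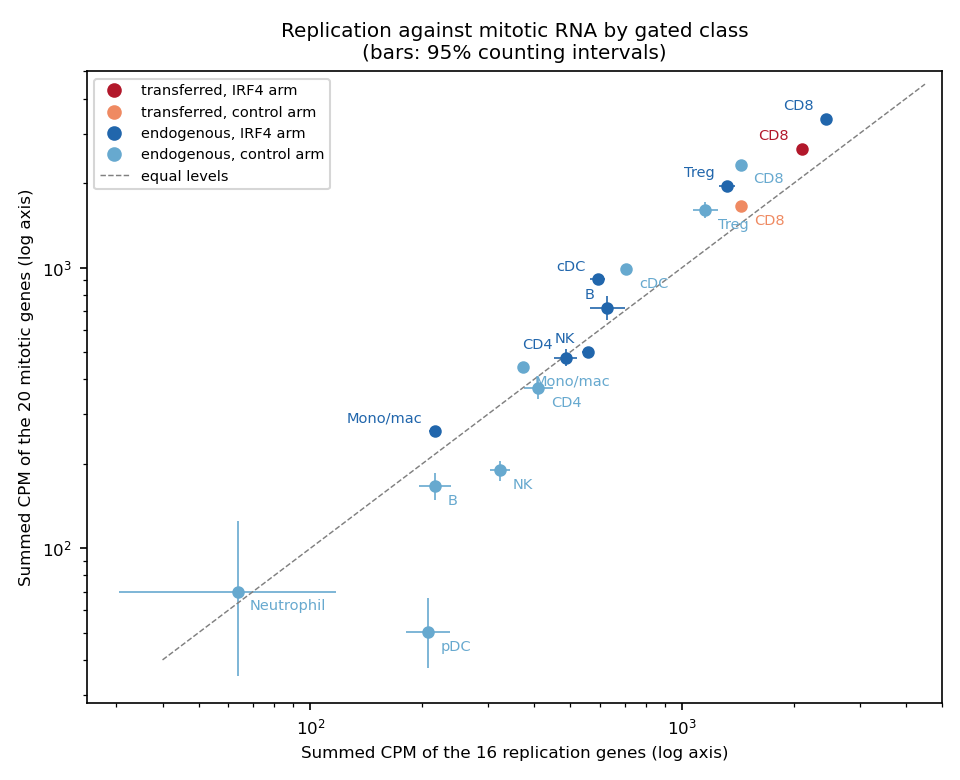
Summed CPM of the 16 replication genes (x axis, log) against the 20 mitotic genes (y axis, log) for each gated class in each library; the dashed line marks equal sums. CD8 and regulatory T cells lie at the upper right, from 1155 to 2439 CPM of replication genes, and plasmacytoid dendritic cells of the control arm lie furthest below the line.

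In natural killer (NK) cells the genes were higher in the IRF4 arm. Of 29 measured, 23 were higher and 0 lower, against 1.82% and 1.89% of all measured genes. Replication genes summed to 557 against 324 CPM (1.72, 1.60 to 1.85) and mitotic genes to 502 against 189 CPM (2.65, 2.43 to 2.90). Pclaf stood at 77.8 against 16.4 CPM (4.76, 3.56 to 6.48), Top2a at 86.8 against 29.5 CPM (2.94, 2.35 to 3.71) and Mki67 at 65.9 against 23.1 CPM (2.85, 2.22 to 3.72). The highest ratio was that of Aurkb, 12.6 against 0.962 CPM (13.1, 4.31 to 64.8), whose control value is 3 UMIs.

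Few NK cells carried this difference. In the IRF4 arm 7 of 1030 cells held at least 50% of the mitotic UMIs, and in the control arm 16 of 544. Of the 77 Aurkb UMIs, found in 23 cells, 4 cells held at least 50%. After thinning, both kinds of UMI were present in 20 of 1025 NK cells of the IRF4 arm (1.95%) and in 2 of 541 of the control arm (0.370%), while any mitotic UMIs at the same limit were present in 6.54% (5.10 to 8.23) and 4.62% (3.01 to 6.75). The intervals of the mitotic shares overlapped. The mitotic sums of thinned NK cells were 227 (207 to 248) and 139.6 (118 to 164) CPM. With every cell weighted equally 7 genes were higher in place of 23. The 20 cells with both had a median depth of 17820 UMIs, against 5090 in cells with neither, and fewer of them had a UMI of Gzmb (20%, 5.73 to 43.7, against 54.7%) or of Ccl5 (45.0%, 23.1 to 68.5, against 92.5%), which mark the rest of the NK cells. In the same library Ccl5 was also lower in CD8 cells with both kinds of UMI, at 74.9% against 92.0% with neither. The lower Ccl5 share was thus not particular to these 20 cells. Tcf7 had a UMI in 30% (11.9 to 54.3) of the 20 and in 30.0% of NK cells with neither. Whether these 20 are NK cells in division or barcodes of another kind was not tested.

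In monocytes and macrophages the direction was the opposite. Of 30 genes measured, 24 were lower in the IRF4 arm and 0 higher, against 5.34% and 5.96% of all measured genes. Replication genes summed to 216 against 372 CPM (0.580, 0.557 to 0.604) and mitotic genes to 263 against 442 CPM (0.593, 0.572 to 0.615). Mcm6 stood at 12.1 against 30.5 CPM (0.397, 0.335 to 0.467), Mki67 at 29.3 against 57.7 CPM (0.508, 0.455 to 0.566) and Ccnb2 at 9.27 against 21.3 CPM (0.434, 0.357 to 0.525). Hmgb2 alone among the measured genes had a ratio above 1, at 370.3 against 291 CPM (1.27, 1.23 to 1.32). By share of thinned cells the order was the same, with mitotic UMIs in 4.52% (3.37 to 5.91) and 7.66% (6.47 to 8.999). Here too few cells held most of the signal, 10 of 1112 and 26 of 1781 cells holding at least 50% of the mitotic UMIs. Without the 6% deepest barcodes 3 genes were lower, with every cell weighted equally 11, and at 2-fold 7. Melanoma transcripts stood higher in the IRF4 arm in these cells, with Dct at 26.6 against 5.97 CPM and Pmel at 14.02 against 4.602 CPM, and Hbb-bs at 0.920 against 814 CPM. Without the melanoma-positive barcodes 22 genes were lower, and the part of the globin RNA was not tested.

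The same 2 endogenous libraries thus gave ratios above 1 in CD8 and NK cells and below 1 in monocytes and macrophages. The difference between classes was not tested. Among further genes, 13 of 41 replication and 12 of 26 mitosis genes were higher in NK cells and 0 lower, and 11 of 32 and 9 of 18 were lower in monocytes and macrophages and 0 higher. Of the G1 regulators in monocytes and macrophages 5 of 23 were higher, and Cdk6 was lower (37.6 against 59.5 CPM). Among the 5 were Klf2 (704 against 265 CPM) and Btg2 (573 against 247 CPM), both known to restrain division. In NK cells, where replication and mitotic genes were higher, these 2 also had ratios above 1, at 1.36 (1.30 to 1.43) and 1.31 (1.25 to 1.38). Their part in either difference was not tested.

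Of the 39 genes, Cdkn2a had the lowest ratio of transferred over endogenous CD8 cells in both arms. The gene (ENSMUSG00000044303, chr4:89274471-89294653, minus strand, mm10) had 13, 91, 777 and 171 UMIs, found in 8, 54, 330 and 68 CD8 cells. Those were 1.69% (0.735 to 3.31), 2.74% (2.06 to 3.56), 16.7% (15.1 to 18.5) and 10.0% (7.88 to 12.6) of cells, although the transferred cells were the deeper. The ratio of transferred over endogenous was 0.0902 (0.0692 to 0.117) in the control arm and 0.0443 (0.0235 to 0.0763) in the IRF4 arm. Between arms it was 1.23 (1.04 to 1.46) in endogenous cells. NK cells and B cells had 1 UMI each in the IRF4 arm, and monocytes and macrophages 6 and 9 UMIs. The counts do not part its p16INK4a and p19ARF transcripts, which start at different sites.

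Cenpa (ENSMUSG00000029177, chr5:30666777-30674830, plus strand) was found in B cells about as often as in CD8 cells. After thinning it was present in 19.5% and 23.9% of B cells, beside 25%, 20.4%, 23.5% and 16.7% of CD8 cells. Without it, a setting added after seeing the data, mitotic UMIs were present in 1.69% and 0.622% of B cells, in place of 8.47% and 4.98%, and in 31.6%, 21.8%, 34.0% and 16.1% of CD8 cells. The shares in CD8 cells thus depended far less on it than those in B cells.

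Of the 39 genes, Mcm7, Tk1, Pclaf, Ccne2, Gins2, Ccna2, Cdc20, Nusap1, Ube2c and Prc1 overlap another listed gene on the opposite strand. Prc1 overlaps Rccd1 over 21810 bases. The sources used here do not say whether counting used strand, so UMIs of these genes and their partners may not be fully parted.

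Over 15 sums of 1 class in 1 library, the genes outside the lists whose order was most like that of the replication sum, by Spearman's rho among 4733 genes, were Ccdc34 (0.986), Fignl1 (0.982), Mrpl18 (0.975), Srsf3 (0.968) and Aspm (0.957). For the mitotic sum they were Aspm (0.975), Ccdc34 (0.975), Fignl1 (0.971), Tubb5 (0.971) and Nup62 (0.957). The 4733 genes reached 50 CPM in at least 1 of the 15 sums, and histone, ribosomal protein and Gm-numbered genes were left out. The sums share 4 libraries and their depths, and the values are a description. In CD8 cells Aspm, a spindle pole protein, stood at 45.2, 29.5, 53.8 and 47.2 CPM, with the transferred control library lowest, as for the mitotic sum.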

How the data were processed

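Droplet matrices of UMI counts per gene and cell barcode were used as the authors deposited them, 1 per library, with 28692 genes each. Per the submitters' processing notes, Cell Ranger 3.0.2, STAR 2.6 and the mm10 build were used; settings and any use of strand are not given in the sources used here. Per the labels' protocols the libraries were 3' droplet RNA, and the protocol also speaks of nuclei. From the counts, barcodes with at least 1000 UMIs, 500 genes and at most 10% mitochondrial UMIs were kept. Cells were gated by marker UMIs, with CD8 cells needing 2 of Cd3d, Cd3e and Trac, 1 of Cd8a and Cd8b1 and no Cd4 or Foxp3. No doublet caller was run: barcodes with markers of more than 1 lineage were left out. Counts were summed per class and library and divided by the class total (CPM). Genes at 10 CPM or more in either library were compared, and a ratio of 1.5 on log2(CPM + 1) was called higher or lower. That scale understates changes of low genes. Ratios have conditional binomial, levels Poisson and shares Clopper-Pearson exact 95% intervals. With 1 library per group there is no test and no p-value. The calculation was tested on simulated data. For shares, cells were thinned to 2000 UMIs. The members, further gene lists and settings were chosen with earlier results of these data known. Values are given for all members, and from each further list mainly for the 2 highest and 2 lowest genes at 50 CPM or more in a comparison. Others were chosen after their values were seen. Promoter windows came from RefSeq GRCm38.p6, and gene coordinates from the mm10 annotation supplied. Python 3.11.15, numpy 2.4.6, scipy 1.17.1 and pandas 2.3.3 were used.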

Additional observations from a re-analysis of the deposited data

How the results depend on the processing

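No paired analysis was possible because each group has 1 library, so no replicate pairs exist and no replicate could be left out. In all 11 alternatives run, 0 genes were lower in the IRF4 arm in transferred CD8, endogenous CD8 or NK cells, and 0 were higher in monocytes and macrophages. The other counts moved. Without the 6% deepest barcodes, genes higher in the IRF4 arm numbered 14 in transferred CD8 cells, genes lower in monocytes and macrophages 3, genes higher in transferred cells 6 (control arm) and 1 (IRF4 arm), and genes lower there 3 and 5. That setting removed CD8 cells unevenly, leaving 452, 1947, 1755 and 643 of 472, 1972, 1971 and 677. The part of this uneven loss was not tested. With a mitochondrial limit of 5%, 15 genes were higher in endogenous CD8 cells of the IRF4 arm, and 17 (control arm) and 11 (IRF4 arm) were lower in transferred cells. The strict gate gave 14 and 8 of the latter. With barcodes of mixed lineage kept, the counts were 39 higher in endogenous CD8 cells and 2 lower in transferred control cells. With every cell weighted equally, 7 were higher in NK cells, 11 lower in monocytes and macrophages, and 1 higher and 1 lower in transferred control cells. Without melanoma-positive barcodes, chosen after seeing the data, 8 were lower in transferred control cells. At 2-fold, 0 were higher in transferred and 3 in endogenous CD8 cells, 2 and 1 were lower in transferred cells of the control and IRF4 arms, and 7 in monocytes and macrophages. Signs changed only for transferred over endogenous cells. The replication sum moved from a log2 ratio of -0.22 to 0.039 in the IRF4 arm without the deepest barcodes. In the control arm it moved from 0.0035 to -0.00082 with no barcode filter, -0.15 at the 5% limit and -0.10 with the strict gate. There the median moved from -0.30 to 0.087 with mixed barcodes kept and to 0.0068 with equal weights. The cause was not tested. Single libraries, counting error alone and sums held largely by few cells, in CD8 cells as in the other classes, limit every value.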
